A study of Mus musculus with 9 samples.

Results

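The MHC class I pathway was followed through 10 genes in the gastrocnemius, a calf muscle, of newborn mice. They encode the class I chains (*H2-K1*, *H2-D1* and *B2m*), the peptide transporter and its loading partner (*Tap1*, *Tap2* and *Tapbp*), the catalytic subunits of the immunoproteasome (*Psmb8*, *Psmb9* and *Psmb10*) and the transactivator of the pathway (*Nlrc5*). The 10 genes are rows of a table of 55471 gene IDs, each matched to 1 ID by symbol, and all 10 were among the 21809 genes that passed the filter on low counts. They were selected on the same contrast that is described here, because gene sets of antigen presentation and interferon signalling stood higher in the mutant in an earlier analysis of these data. Their differences between the genotypes are therefore given as a description, and the count of members with a low p in the fit over all genes is printed beside the share of all genes, as no support.

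The muscle came from 5 *Shank3Δ11(-/-)* mice (KO1 to KO5), homozygous for a *Shank3* allele named for the exon it lacks, and 4 *Shank3(+/+)* mice (WT1 to WT4), all at postnatal day 0 to 1. The labels give C57BL/6 as the background of all 9 mice, while the methods name C57BL/6 for the wildtype mice and heterozygous C57BL/6JRj parents for the mutants. No treatment is named for either genotype. Library totals ranged from 26444372 counts in KO5 to 40471957 in KO4. The study left KO2 and KO4 out of its comparison for too few total reads, and its supplement takes their mapped reads as a sign of lower library quality. The deposited totals count reads assigned to genes, which is another measure. By it KO4 is the highest, and KO2, at 28211941, is above KO5. Following the study's choice of mice, fold changes are given for the 3 remaining mutants (KO1, KO3, KO5) and all 4 controls, together 7 mice. The values of KO2 and KO4 and the fit over all 9 mice stand beside them. *Shank3* was counted at 25.7 to 35.0 CPM in *Shank3Δ11(-/-)* and 32.5 to 38.5 CPM in *Shank3(+/+)*. A count over the whole gene does not check the deletion of an exon. Muscle markers were abundant in every mouse, with a summed level of the 10 markers between 63480 and 72020 CPM.

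Nearly all nucleated cells show peptides from their own proteins on class I molecules. The proteasome cuts proteins, TAP pumps the peptides into the endoplasmic reticulum, tapasin holds TAP next to an empty class I molecule, and the loaded heavy chain travels to the surface with beta-2-microglobulin. Interferon raises the whole set, exchanging the constitutive catalytic subunits of the proteasome for the immunoproteasome subunits, and mature muscle fibres are known for low class I while endothelial cells and leukocytes carry more.

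Class I promoters carry a block of short elements just before the gene, and the stretches are shown here so that the promoters of the 3 chain genes and of *Tap1* can be compared. Promoter stretches are RefSeq's on GRCm38.p6, which holds windows for 8 of the 10 members. *Tap2* and *Nlrc5* have no entry. Capitals mark 4 motifs searched on both strands with the *H2-K1* sequence in view. They are GGGATTCCC (the NF-kB type site of enhancer A), AANTGAAA (the interferon response type), TGACG (the X2 type site, bound by CREB and ATF factors) and CCAAT (the Y type site, bound by NF-Y), and none of the marked sites overlap. *H2-K1* is shown for the bases just before its start site, chr17:34000348-34000597 on the minus strand, and *B2m* likewise, chr2:122147437-122147685 on the plus strand.
H2-K1: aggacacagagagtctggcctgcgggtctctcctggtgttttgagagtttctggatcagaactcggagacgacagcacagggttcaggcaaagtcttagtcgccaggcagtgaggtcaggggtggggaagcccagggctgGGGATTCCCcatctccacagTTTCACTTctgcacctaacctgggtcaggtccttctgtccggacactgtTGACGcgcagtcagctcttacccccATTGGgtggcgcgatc
B2m: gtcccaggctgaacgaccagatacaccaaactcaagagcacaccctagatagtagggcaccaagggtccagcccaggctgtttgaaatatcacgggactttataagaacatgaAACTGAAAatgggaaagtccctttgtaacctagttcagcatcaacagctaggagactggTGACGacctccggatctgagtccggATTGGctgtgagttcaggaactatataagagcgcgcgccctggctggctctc

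In *H2-D1* the same block lies further from the start site of RefSeq at 35263094. GENCODE starts the gene earlier, so that both *H2-D1* stretches below lie in an annotated UTR of it. Its stretch from the NF-kB type to the interferon response type site, chr17:35262924-35262951 on the plus strand, is set below the stretch of *H2-K1* at chr17:34000430-34000457, which is identical at 27 of 28 bases.
H2-K1: GGGATTCCCcatctccacagTTTCACTT
H2-D1: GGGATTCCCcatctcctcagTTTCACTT
The stretch from the X2 type to the Y type site is 30 bases long in all 3 chain genes, with 20 bases between the sites. With the 10 bases of the motifs counted in, *H2-K1* and *H2-D1* are identical at 23 of these 30 bases, *H2-K1* and *B2m* at 13 and *H2-D1* and *B2m* at 12. *H2-K1* holds it at chr17:34000359-34000388, *H2-D1* at chr17:35262993-35263022 and *B2m* at chr2:122147609-122147638. In RefSeq, 225 bases separate the divergent start sites of *Psmb9* and *Tap1*, whereas in GENCODE the genes overlap by 212 exon bases and the *Tap1* stretch below lies in an annotated UTR of *Psmb9*. A TGACG opens the 30 bases shown for *Tap1* at chr17:34187470-34187499 on the plus strand, and no CCAAT lies between it and the start of *Tap1*.
H2-K1: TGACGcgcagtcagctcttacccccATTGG
H2-D1: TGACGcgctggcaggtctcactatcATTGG
B2m: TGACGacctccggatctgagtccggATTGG
Tap1: TGACGacagagggtcctgccctcaatctgg
Over the 250 bases before the start in all 32851 promoter windows, GGGATTCCC was found in 0.301%, AANTGAAA in 5.7%, TGACG in 17.8% and CCAAT in 33.8%. Of the 8 members with a window, 2 (*H2-K1* and *H2-D1*) held the first, 3 (with *B2m*) the second, 5 (with *Tap1* and *Psmb9*) the third and 6 (with *Tapbp*) the fourth. A match describes the letters and not a bound site.

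*B2m*, the light chain shared by all class I molecules, was by far the most abundant member, and the immunoproteasome subunit *Psmb9* and *Nlrc5* the least. Levels of different genes are compared as CPM per kb of annotated exon, averaged over the 9 mice. *B2m* was at 127 CPM per kb, *H2-D1* at 17.6 and *H2-K1* at 7.86. The loading partner *Tapbp* followed at 6.62 and *Psmb10* at 5.91. *Tap2* was at 1.91, *Tap1* at 1.09 and *Psmb8* at 1.06 CPM per kb, *Psmb9* at 0.411 and *Nlrc5* at 0.203. *B2m*, *H2-D1* and *H2-K1* did not overlap in their ranges over the mice. *H2-K1*, *Tapbp* and *Psmb10* overlapped with their neighbours in this order, and so did *Tap2*, *Tap1*, *Psmb8*, *Psmb9* and *Nlrc5* with theirs, whereas the ranges of *Psmb10* and *Tap2* were apart.

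In the fit over the 7 mice the class I chains showed the clearest difference between the genotypes, relative to the standard errors. *H2-K1*, a classical heavy chain that presents peptides to CD8 T cells, was at 19.8 CPM in KO1, 29.2 in KO3 and 35.3 in KO5, with 17.1 in KO2 and 28.5 in KO4. In *Shank3(+/+)* it was at 21.5, 14.8, 19.0 and 22.6 CPM in WT1 to WT4. KO3, KO4 and KO5 lay above every *Shank3(+/+)* mouse, and KO1 and KO2 lay inside their range. KO1, KO3 and KO5 averaged 28.1 ± 7.79 CPM (SD, n = 3), where the controls averaged 19.5 ± 3.46 CPM (SD, n = 4). The fitted log2 fold change was 0.52 (standard error 0.20), or 0.42 (0.20) with all 9 mice. With 1 of the 7 mice left out it ran from 0.32 without KO5 to 0.72 without KO1.

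*H2-D1*, the other classical heavy chain on this background, was at 45.8, 48.6 and 58.5 CPM in KO1, KO3 and KO5, at 33.8 in KO2 and at 60.5 in KO4. The *Shank3(+/+)* mice had 42.2, 35.4, 36.1 and 46.9 CPM. KO3, KO4 and KO5 were again above all *Shank3(+/+)* mice, KO1 was below WT4 only, and KO2 was the lowest of the 9. The log2 fold change was 0.34 (standard error 0.14), 0.30 (0.16) with 9 mice, and 0.22 (without KO5) to 0.42 (without WT4) when 1 mouse was left out. The *H2-K1* level per kb was 36.7% to 52.9% of that of *H2-D1*, highest in KO5 and KO3 and lowest in WT2.

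*B2m* was tightly held in *Shank3(+/+)*, at 101, 99.2, 97.6 and 103 CPM. It was at 111, 120 and 126 CPM in KO1, KO3 and KO5, all above the *Shank3(+/+)* range, at 139 in KO4 and at 84.1 in KO2, which lay below every other mouse. The log2 fold change was 0.24 (standard error 0.09) in 7 mice, 0.21 (0.12) in 9, and 0.19 (without KO5) to 0.29 (without KO1) when 1 mouse was left out. *B2m* was the only member whose genotypes did not overlap in the 7 mice, where 1.53% of all genes tested had every *Shank3Δ11(-/-)* mouse above every *Shank3(+/+)* mouse. With KO2 and KO4 no member was without overlap, beside 0.317% of all genes. Both shares stand beside values that led to the choice of the genes, and nothing is read from them.

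**Figure D1:**
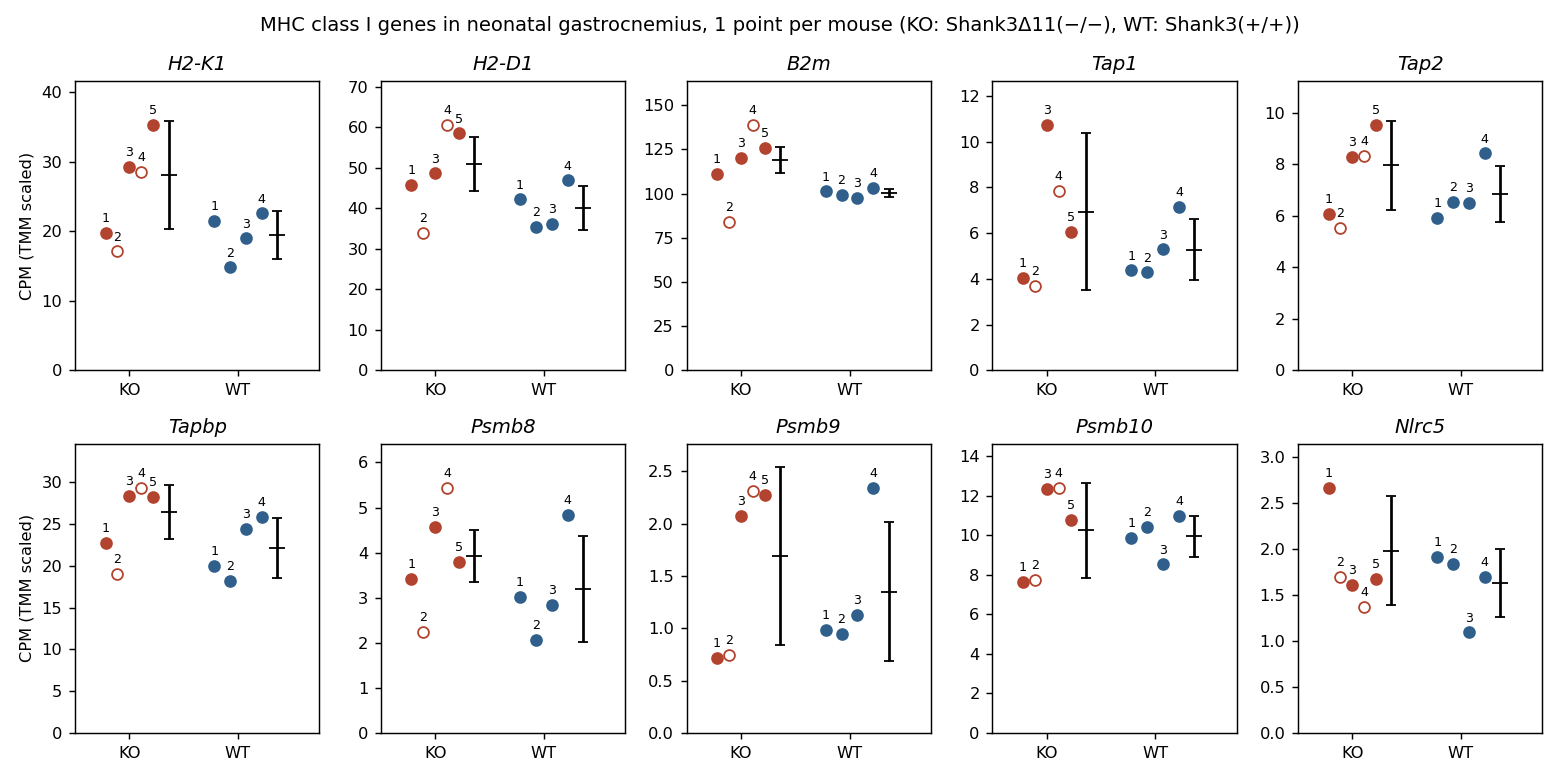
Level of each of the 10 class I genes in CPM (y axis, from 0) in every mouse, numbered by replicate, with KO2 and KO4 as open circles; bars give mean and SD of KO1, KO3 and KO5 and of the 4 WT mice. For *B2m* the filled KO points lie between 111 and 126 CPM and the WT points between 97.6 and 103 CPM, and for all other genes the filled points of the genotypes overlap.

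Some reads of the heavy chains cannot be placed with certainty. Of the 50-base stretches of their transcripts, 9.63% in *H2-K1* and 12.8% in *H2-D1* also occur in other genes, mostly of the class I family, while none do in *B2m*. Of the stretches of *H2-D1*, 5.87% occur in *H2-Q1*, another class I chain given below, so the same limit holds for it. *H2-K1* (chromosome 17, 33996017 to 34000347, minus strand) and *H2-D1* (chromosome 17, 35262730 to 35267499, plus strand) lie in the MHC, as do the TAP, tapasin, *Psmb8* and *Psmb9* genes, and *B2m* is on chromosome 2 (122147686 to 122153083, plus strand), all on mm10.

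The peptide transport and loading genes were less uniform. *Tap1*, a subunit of the transporter, was at 4.04 CPM in KO1, 10.7 in KO3 and 6.07 in KO5, with 3.70 in KO2 and 7.85 in KO4. In *Shank3(+/+)* it was at 4.37, 4.28, 5.29 and 7.15 CPM. KO3 and KO4 were the highest mice, WT4 was above KO5, and KO1 and KO2 were the lowest of all 9. The log2 fold change was 0.39 (standard error 0.31), or 0.30 (0.29) with 9 mice. It was -0.07 without KO3, the only mouse whose omission took it below 0. Without WT4 it was 0.58 and without KO1 0.67.

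*Tap2*, the other subunit, was at 6.07, 8.27 and 9.52 CPM in KO1, KO3 and KO5, 5.53 in KO2 and 8.33 in KO4. The *Shank3(+/+)* mice had 5.91, 6.53, 6.52 and 8.42 CPM. Only KO5 exceeded WT4, and the log2 fold change was 0.21 (standard error 0.19), 0.14 (0.18) with 9 mice, 0.06 without KO5, 0.33 without WT4 and 0.37 without KO1. *Tapbp*, the gene of tapasin, was at 22.7, 28.4 and 28.3 CPM in KO1, KO3 and KO5, 19.0 in KO2 and 29.3 in KO4. It was at 20.03, 18.2, 24.4 and 25.8 CPM in *Shank3(+/+)*. KO3, KO4 and KO5 were above all *Shank3(+/+)* mice and KO1 and KO2 among them, with a log2 fold change of 0.25 (standard error 0.15), or 0.21 (0.15) with 9 mice, and 0.17 (without WT2) to 0.35 (without KO1) when 1 mouse was left out. In annotation, 18.5% of the exon bases of *Tap2*, 29.0% of those of *Tapbp* and 14.7% of those of *Psmb8* are overlapped by other genes. Their counts therefore depend on how such reads were assigned.

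Among the immunoproteasome subunits *Psmb9* split the mice into sets that did not follow the genotype. *Psmb9*, which takes the place of *Psmb6*, was at 2.08 CPM in KO3, 2.31 in KO4, 2.28 in KO5 and 2.34 in WT4. In the other mice it was at 0.720 in KO1, 0.747 in KO2, 0.985 in WT1, 0.945 in WT2 and 1.13 in WT3. No mouse lay between 1.13 and 2.08 CPM, and the upper set holds 3 *Shank3Δ11(-/-)* mice and 1 *Shank3(+/+)* mouse. The log2 fold change was 0.31 (standard error 0.43), 0.27 (0.41) with 9 mice, 0.72 without WT4, 0.68 without KO1, 0.19 without WT1, 0.17 without WT2, 0.13 without KO3 and 0.04 without KO5. These values rest on 22 to 88 reads per mouse, and the 22 reads of KO2 have an exact Poisson 95% interval of 13.8 to 33.3.

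*Psmb8*, the counterpart of *Psmb5*, was at 3.41, 4.56 and 3.79 CPM in KO1, KO3 and KO5, 2.24 in KO2 and 5.44 in KO4. In *Shank3(+/+)* it was at 3.02, 2.07, 2.83 and 4.85 CPM. KO4 and WT4 were the highest mice and KO2 and WT2 the lowest, so each genotype spanned the range. The log2 fold change was 0.29 (standard error 0.27), 0.29 (0.28) with 9 mice, 0.13 without WT2, 0.17 without KO3 and 0.57 without WT4. *Psmb10*, the counterpart of *Psmb7*, was at 7.64, 12.4 and 10.8 CPM in KO1, KO3 and KO5, 7.74 in KO2 and 12.4 in KO4. It was at 9.88, 10.4, 8.53 and 11.0 CPM in *Shank3(+/+)*. Here KO1 and KO2 were the lowest and KO3 and KO4 the highest of all mice, with the *Shank3(+/+)* mice between them. Its log2 fold change was 0.04 (standard error 0.18), 0.03 (0.17) with 9 mice, and ran from -0.12 without KO3 to 0.21 without KO1 when 1 mouse was left out.

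Of the constitutive subunits *Psmb5* placed the mice in the same sets as *Psmb9*, at 52.4 to 63.8 CPM in KO3, KO4, KO5 and WT4 and 37.7 to 47.4 CPM in the others, while *Psmb6* and *Psmb7* did not. *Psmb5*, *Psmb6* and *Psmb7* had log2 fold changes of -0.02, 0.05 and -0.05 in 7 mice (standard errors 0.18, 0.14 and 0.13), and of -0.04, 0.00 and -0.10 in 9, with adjusted p = 1.00 for each in edgeR. Set per kb against *Psmb6*, *Psmb9* was at 0.278% in KO1 and 0.312% in KO2, between 0.325% and 0.473% in WT1, WT2 and WT3, and between 0.694% and 0.843% in KO3, KO4, KO5 and WT4. *Psmb8* was at 1.21% to 2.75% of *Psmb5* and *Psmb10* at 14.2% to 25.1% of *Psmb7*. The ratio of *Psmb10* was highest in KO3 and KO4 and lowest in KO1, and WT4 was not raised at 16.0%. The mean of *Psmb9* against *Psmb6* was 0.572% ± 0.255 (SD, n = 3) for KO1, KO3 and KO5, compared with 0.476% ± 0.172 (SD, n = 4) for the controls, a difference smaller than either spread. All annotated exons enter these lengths, so the absolute percentages depend on the gene models.

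**Figure D2:**
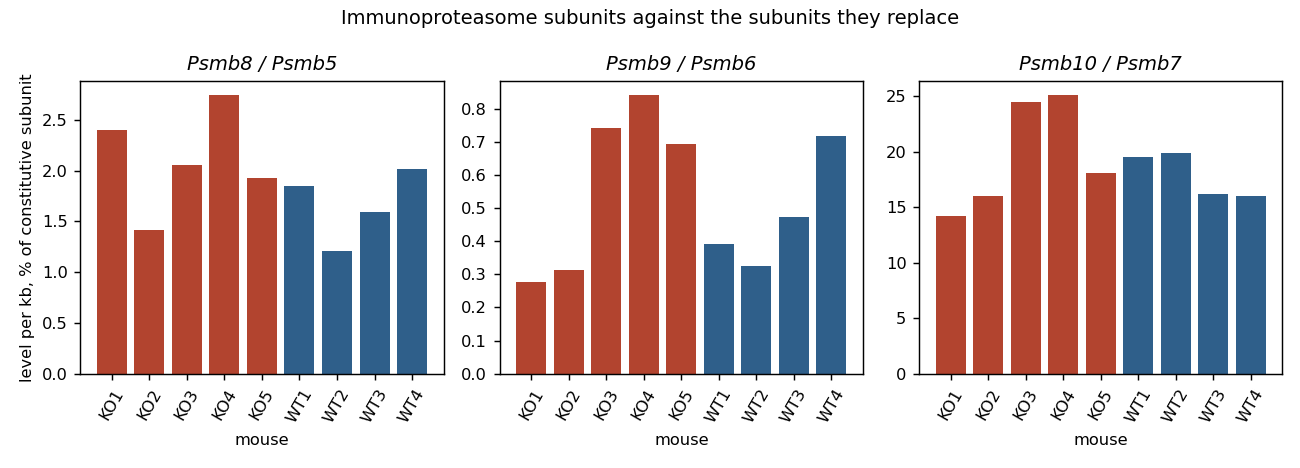
Level per kb of each immunoproteasome subunit as a percentage of the constitutive subunit it replaces (y axes, from 0), 1 bar per mouse, KO mice in red and WT mice in blue. *Psmb9* reached 0.694% to 0.843% of *Psmb6* in KO3, KO4, KO5 and WT4 and at most 0.473% in the others.

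*Nlrc5*, the class I transactivator, ran against the other members. It was highest in KO1 at 2.66 CPM, with 1.60 in KO3 and 1.67 in KO5, 1.70 in KO2 and 1.37 in KO4. The *Shank3(+/+)* mice had 1.91, 1.83, 1.09 and 1.69 CPM. KO4, the highest mouse in 5 of the 10 members, was second lowest in *Nlrc5*. The log2 fold change of 0.27 (standard error 0.27), 0.14 (0.24) with 9 mice, was 0.00 without KO1, 0.13 without WT3 and 0.40 without KO3. The gene was counted with 32 to 85 reads per mouse. *Nlrc5* (94434356 to 94527272, plus strand) and *Psmb10* (105935735 to 105938444, minus strand) lie on chromosome 8 and outside the MHC.

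Across the members the same mice were high. KO4 was among the 3 highest mice in 9 of 10 members, KO3 in 7, KO5 in 6 and WT4 in 5. KO2 was among the 3 lowest in 9 members, WT2 in 7, WT3 in 6 and KO1 in 4. The mean member level, the average of log2 CPM relative to the 9-mouse mean of each gene, was -0.14 in KO1, -0.41 in KO2, 0.33 in KO3, 0.36 in KO4 and 0.30 in KO5. It was -0.15, -0.29, -0.22 and 0.22 in WT1 to WT4. KO1 thus lay with WT1, and WT4 with KO3 to KO5. The genotype means differed by 0.28 in the 7 mice (0.17 ± 0.27, SD, n = 3, in the mutants; -0.11 ± 0.23, SD, n = 4, in the controls) and by 0.20 in all 9, which is close to or below the spread within a genotype. Averaged over the 3 immunoproteasome subunits, the relative level ran from -0.58 in KO2 to 0.58 in KO4, compared with -0.38 to 0.43 for the 3 class I chains.

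**Figure D3:**
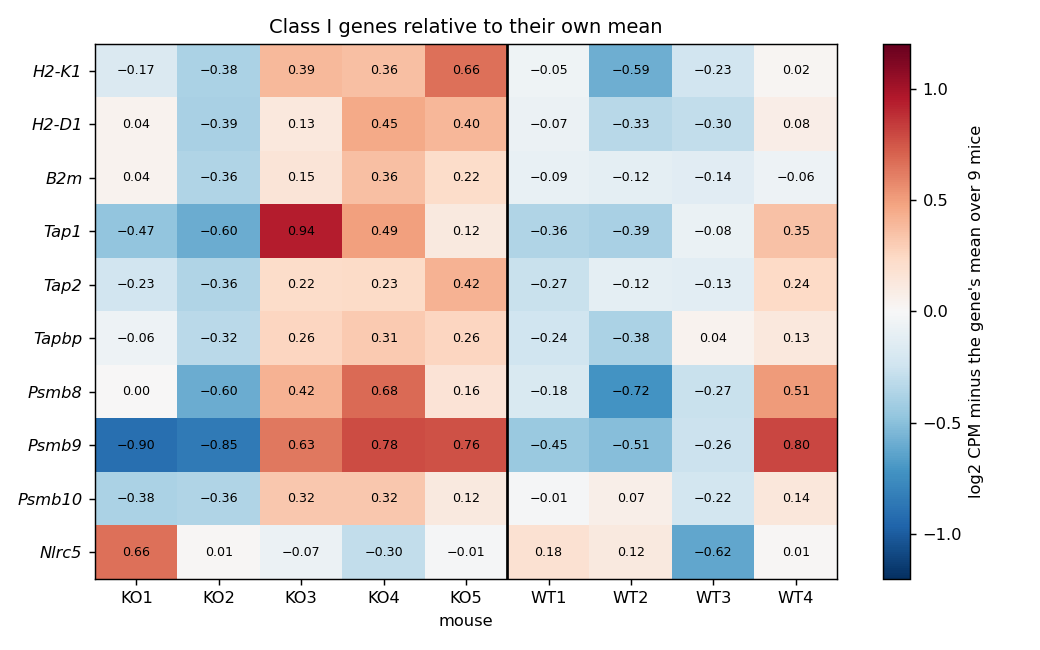
Log2 CPM of each class I gene (rows) in each mouse (columns) minus the mean of the gene over the 9 mice, from blue (lower) to red (higher), with the value in each cell. The columns KO3, KO4 and KO5 are positive in the first 9 rows and KO2 is negative in them; in the last row, *Nlrc5*, KO1 is highest at 0.66 and WT3 lowest at -0.62.

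Correlated over the 9 mice with the mean of the other 9 members, each gene except *Nlrc5* had a Pearson r between 0.78 (*Psmb10*) and 0.91 (*Tap2*), while *Nlrc5* had -0.30 (Spearman's rho -0.68). These are descriptions of 9 libraries that share their depth scaling. The 5 tested genes outside the members most like the mean member level included both a subunit of the interferon-inducible PA28 proteasome activator, *Psme1* (r = 0.96, rho 0.83), and *Psme2b* (r = 0.97, rho 0.92), a copy of the partner subunit *Psme2* whose reads may be split with it. The others were *Atp6v1g1*, a subunit of the vacuolar proton pump (r = 0.97), *Gm5983* (r = 0.96) and *Pycr1*, an enzyme of proline synthesis (r = 0.96), out of 21725 genes compared. *Psme1* was at 49.7, 47.4, 48.3 and 46.2 CPM in KO3, KO4, KO5 and WT4 and at 34.5 to 39.9 CPM in the other mice, the division also seen in *Psmb9*. All 5 of these genes, picked for their likeness to the member level, showed it. *Atp6v1g1*, for example, was at 91.3 to 102 CPM in KO3, KO4, KO5 and WT4 and at 59.0 to 77.1 CPM in the others.

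All 10 log2 fold changes were above 0 in the 7 mice, with a median of 0.28, where the median of all genes tested was -0.01. In 9 mice the median was 0.24, against 0.00 for all genes. At an unadjusted p below 0.05 in edgeR, 3 of the 10 members (*H2-K1*, *H2-D1* and *B2m*) were higher in the 7 mice, beside 1.16% of all genes in that direction and 2.08% in either. In 9 mice 0 of the 10 were, beside 1.16% of all genes in that direction and 2.03% in either. With p below 0.05 and FDR below 25%, 0% of the genes tested were called by edgeR in 7 and in 9 mice, from 453 and 442 genes with an unadjusted p below 0.05. In the 7 mice DESeq2 called 6 genes from 393 and limma-voom 0 from 426, with 0 members among them. Because the members were chosen on this contrast, these counts are printed as part of the description.

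A known difference between the mice that the labels do not give runs across the genotypes. KO1, KO2, KO4, WT1 and WT2 had 99.9 to 128 CPM of the Y-linked *Ddx3y*, and KO3, KO5, WT3 and WT4 at most 0.260 CPM. Among mice without it, the mean member level was 0.32 higher in the 2 *Shank3Δ11(-/-)* than in the 2 *Shank3(+/+)* mice, and all 10 members were higher. Among mice with it, 3 *Shank3Δ11(-/-)* mice were 0.16 above 2 *Shank3(+/+)* mice, with 8 of 10 members higher (all but *Psmb10* and *Nlrc5*), and KO1 alone was 0.08 above them. For *H2-K1* the difference in mean log2 CPM was 0.63 without and 0.25 with Y-linked RNA, for *H2-D1* 0.37 and 0.23, and for *B2m* 0.29 and 0.12. No test of these small sets was made.

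The rest of the pathway was read from 7 lists of 86 genes, of which 77 were tested. In the 7 mice 0 of 77 passed an unadjusted p below 0.05 in edgeR in either direction, and in 9 mice 1 did. The list nearest to the members was that of the other class I and class I-like chains (chains of the Q, T and M regions with *Mr1*, *Cd1d1*, *Fcgrt* and *Hfe*), with 12 of 14 log2 fold changes above 0 and a median of 0.20 (13 of 14 and 0.19 in 9 mice). *H2-Q6* was at 1.28, 2.17 and 1.67 CPM in KO1, KO3 and KO5, 1.39 in KO2 and 2.39 in KO4, and at 0.975 to 1.36 CPM in *Shank3(+/+)*. Its log2 fold change was 0.55 (standard error 0.25) in 7 mice and 0.62 (0.23) in 9, where it was the gene with an unadjusted p below 0.05, and its adjusted p = 1.00 in both edgeR fits. *H2-Q1* was at 0.845, 1.04 and 1.21 CPM in KO1, KO3 and KO5, 0.645 in KO2 and 1.02 in KO4, and at 0.561 to 0.748 CPM in *Shank3(+/+)*. Its log2 fold change was 0.57 (0.27) in 7 mice and 0.46 (0.24) in 9. *H2-T23* was at 5.23, 5.28 and 4.82 CPM in KO1, KO3 and KO5, 5.07 in KO4 and 2.55 in KO2, the lowest of all mice, and at 3.28 to 5.02 CPM in *Shank3(+/+)*. Its log2 fold change of 0.35 (0.19) in 7 mice was 0.21 (0.22) in 9, and both genes had adjusted p = 1.00 in both edgeR fits.

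The shared machinery of the endoplasmic reticulum and the proteasome stayed near 0. The 12 chaperones and trimming enzymes had a median log2 fold change of 0.02, the 12 other proteasome parts tested 0.06, the 4 proteasome activators 0.06 and the 24 regulators tested 0.04. In these lists 0 genes passed the unadjusted p. Calreticulin (*Calr*), a chaperone of the loading complex, had a log2 fold change of 0.25 (standard error 0.21), 0.23 (0.19) with 9 mice, and *Rela*, an NF-kB subunit, of 0.21 (0.10), 0.16 (0.09) with 9 mice, each with adjusted p = 1.00 in edgeR. *Ifnb1* had 0 reads in all 9 mice and *Ifng* at most 0.0339 CPM. Of 24 interferon-stimulated genes tested, 21 had a log2 fold change above 0 (median 0.40) and 0 passed the unadjusted p.

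**Figure D4:**
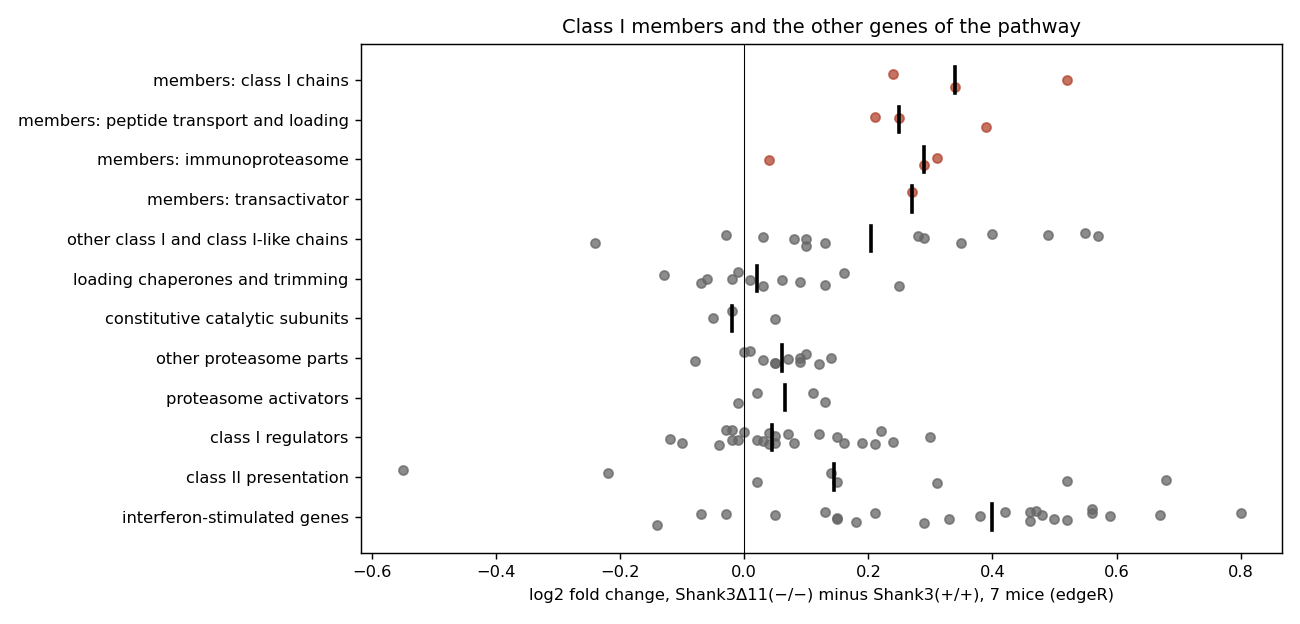
Log2 fold change of *Shank3Δ11(-/-)* against *Shank3(+/+)* in 7 mice (x axis, edgeR) for the 4 groups of members (red) and for the genes tested in the other lists (grey), with the median of each list as a black line. All 10 members are above 0, with *Psmb10* at 0.04 the closest to it, and the constitutive catalytic subunits lie between -0.05 and 0.05.

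Interferon-stimulated genes and the members did not share all of their high mice. The mean relative level of the 24 genes was 0.67 in KO3 and 0.37 in KO4, but -0.31 in KO5, where *H2-K1* and *Tap2* were highest. In WT4 it was 0.06, although *Psmb9* was highest there, and the 3 class I chains averaged 0.01 in that mouse.

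Markers of other cells moved with some of these mice. The summed level of 10 endothelial markers was 997, 1054 and 1040 CPM in KO1, KO3 and KO5 against 896 to 996 CPM in *Shank3(+/+)*. It was 826 CPM in KO2 and 1182 in KO4, the mice with the lowest and the highest *B2m*. All 10 endothelial log2 fold changes were above 0 (median 0.11) and 0 passed the unadjusted p. Summed pan-leukocyte markers (6 genes) ranged from 45.7 to 61.0 CPM in *Shank3Δ11(-/-)* and 40.3 to 52.0 CPM in *Shank3(+/+)*, and myeloid markers (12 genes) from 209 to 297 and 218 to 275 CPM. Of 10 T and NK cell markers 8, and of 5 B cell markers 4, were below 1 CPM in all mice, and no marker of these lists was at 0 in every mouse. The 5 adipocyte markers summed to 1126 CPM in KO5 and to 186 to 403 CPM in the other mice. All 4 adipocyte markers tested were higher at an unadjusted p below 0.05 in the 7 mice (median log2 fold change 5.32), beside 1.16% of all genes in that direction. In 9 mice 2 of 4 were, again beside 1.16%. *Cfd*, of smallest p in edgeR among them, was at 145 CPM in KO5, 9.0 in KO1, 0.509 in KO2, 0.0944 in KO3 and 0 in KO4. In *Shank3(+/+)* it was at 0 to 0.358 CPM. The 5 erythroid markers summed to 5771 CPM in KO1 and 1222 to 2192 CPM in the others. The 6 fibroblast markers summed to 31180 CPM in KO4 and 24670 in WT4, and were lowest in WT2 at 15030 and KO2 at 18090 CPM. The 5 epidermal markers summed to 56.2 CPM in WT4 and 32.5 in KO5, to 15.2 to 24.2 CPM in KO3, KO4 and WT1 to WT3, and to 12.4 and 12.9 CPM in KO1 and KO2. In both lists 0 markers passed the unadjusted p. The part of these cells in the class I levels was not tested. In whole muscle, fewer cells of a type and less RNA per cell cannot be told apart.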

How the data were processed

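Gastrocnemius RNA of 9 newborn mice was sequenced, 1 library per mouse. The deposited counts are the numbers of reads per Ensembl gene that the authors obtained with HISAT2 on mm10 and featureCounts, without normalization. Strandedness, the annotation release and the handling of multi-mapped reads: not given in the sources used here. Symbols, positions and exon lengths came from GENCODE M21 on mm10, promoter sequences from RefSeq on GRCm38.p6.

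CPM values were scaled with TMM over the 9 mice in edgeR 4.0.16 (R 4.3.3), log2 CPM with a prior count of 2. CPM per kb was divided by the summed length of all annotated exons. Log2 fold changes and standard errors came from edgeR's robust quasi-likelihood fit over all genes left by filterByExpr (minimum count 10, minimum total count 15), with 2-sided tests and Benjamini-Hochberg adjustment. The calling criterion was p below 0.05 with FDR below 25%. KO1, KO3 and KO5 were set against WT1 to WT4, the choice of mice in the paper, and all 9 mice were fitted as an alternative. Further alternatives were other filters and normalizations, DESeq2 1.42.0, limma-voom 3.58.1, the replicate number as a block, *Xist* as a covariate and each mouse left out. The fit was tested on simulated data.

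The members and all gene lists were chosen with earlier results of these data known. Named are the 10 members, up to 3 genes of smallest p in each other list, *Psmb5*, *Psmb6* and *Psmb7*, the 5 tested genes most like the mean member level, and *Shank3*. *Cd74*, *Ifng*, *Ifnb1* and *Ddx3y* were named after their values were seen. P-values measure the spread between these mice, and counting intervals cover counting error only. A listed gene that the naming rule would include is not reported here.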

Additional observations from a re-analysis of the deposited data

Results flagged for a closer look

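In 2 of the 20 groups of mice examined (10 members in 2 genotypes), 1 mouse stood apart from the others of its genotype by Dixon's criterion, which chance meets in about 1 in 20 groups. *Psmb9* was at 2.34 CPM in WT4, where the other *Shank3(+/+)* mice had at most 1.13 CPM. *Nlrc5* was at 2.66 CPM in KO1, where the other *Shank3Δ11(-/-)* mice had at most 1.70 CPM.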

How the results depend on the processing

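The median log2 fold change of the members, 0.28 in the 7 mice, stayed above 0 in all 19 alternatives (0.16 to 0.38), from 0.19 without KO3 to 0.38 without KO1 when mice were left out. The difference in mean member level was 0.25 to 0.28 under other scalings. Of single members, *Psmb10* fell to or below 0 in 5 alternatives (to -0.12 without KO3) and reached 0.21 without KO1. *Tap1* ran from -0.07 without KO3 to 0.67 without KO1, and *Nlrc5* from 0.00 without KO1 to 0.51 with the replicate block in 7 mice. *Psmb9* was at 0.04 without KO5 and with *Xist* as a covariate in 7 mice, and at 0.72 without WT4. *H2-K1* kept 0.25 to 0.72, *H2-D1* 0.21 to 0.42 and *B2m* 0.16 to 0.29. The number of members with an unadjusted p below 0.05 ranged from 0 (without KO5 or without WT2, among others) to 5 (without WT4). In all alternatives 0 members were called. Over all genes, the 453 with an unadjusted p below 0.05 became 972 without a filter and 224 (without KO5) to 968 (without KO1) with a mouse left out. The 0 genes called became 1 without a filter, 6 in DESeq2, 1 with *Xist* as a covariate and 0 to 15 with a mouse left out. The 0 pathway genes outside the members became 1 with all 9 mice, 1 without a filter, 3 (*H2-Aa*, *H2-Q1* and *H2-Q6*) with at least 10 counts in every mouse, 1 with *Xist* in 9 mice and 0 to 5 with a mouse left out. The 618 genes of either direction whose mice do not overlap became 148 in 9 mice, 1148 without a filter and 1073 to 2738 with fewer mice, where overlap is rarer by construction. The other causes were not tested.

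Same-numbered mice deviated together by correlations of 0.373, 0.0524, 0.357 and 0.101, the mice of numbers 2 and 4 were not most like their own number, and the labels do not say that numbers pair the mice. With the replicate block only numbers held by both genotypes inform the difference. In 7 mice it rested on KO1, KO3, WT1 and WT3, and in 9 mice KO5 did not enter it. The median of the members was then 0.26 in 7 mice and 0.16 in 9. In 7 mice *H2-K1*, *H2-D1* and *B2m* were at 0.25, 0.27 and 0.21, below *Nlrc5* at 0.51, *Tap1* at 0.48 and *Psmb8* at 0.43. Of the members 1 (*H2-D1*) in 7 mice and 0 in 9 had an unadjusted p below 0.05. The replicate block gave 844 genes with an unadjusted p below 0.05 in 7 mice, 9 and 2 genes called in 7 and 9 mice, and 1 pathway gene (*H2-Q6*) in 9.

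Depth limits *Psmb9*, *Nlrc5* and *Psmb8* most, with as few as 22, 32 and 66 reads in a mouse.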

Other observations

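Class II presentation was low in this muscle. *Cd74*, the invariant chain that escorts class II molecules, was at 1.46 to 4.29 CPM, and *H2-Aa* and *H2-Eb1*, which encode class II chains, were at 0.407 to 2.62 and 1.09 to 2.96 CPM over the 9 mice. All 3 were highest in KO5, the mouse with the highest *H2-K1*. The fitted log2 difference was 0.68 (standard error 0.31) in 7 mice and 0.45 (0.39) in 9 for *H2-Aa*, which was lowest in KO2, and 0.52 (0.32) and 0.44 (0.28) for *H2-Eb1*, with adjusted p = 1.00 in each edgeR fit. *Ciita*, the class II transactivator, had -0.55 (0.34) in 7 mice and -0.26 (0.29) in 9, with adjusted p = 1.00 in both edgeR fits. It was at 0.377 to 0.469 CPM in KO1, KO3 and KO5, 0.645 in KO2 and 0.630 in KO4 against 0.492 to 0.921 CPM in *Shank3(+/+)*. In 7 mice 6 of the 8 class II genes tested had a log2 fold change above 0 (median 0.15), in 9 mice 4 of 8 (median 0.03), and 0 passed the unadjusted p in either.

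Among interferon-stimulated genes, the antiviral *Rsad2* was at 18.6 CPM in KO1, 4.24 in KO2, 11.6 in KO3, 14.0 in KO4 and 5.20 in KO5, against 6.41 to 8.45 CPM in *Shank3(+/+)*. The chemokine *Cxcl9* was at 18.0 CPM in KO5 and 1.37 CPM in KO4, the ends of its range, while both mice were high in the class I chains.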
